A study of Mus musculus with 2 samples.

Results

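Endothelial cell markers were examined in liver RNA of apolipoprotein E-deficient mice given squalene. The 10 genes (Pecam1, Cdh5, Kdr, Eng, Tek, Tie1, Egfl7, Lyve1, Stab2 and Ehd3) were taken as a fixed list, out of 12393 genes with a probe set annotated to a single symbol, and all 10 were on the array, on 17 probe sets. Liver endothelium lines both the larger vessels and the sinusoids, the fenestrated capillaries through which plasma reaches hepatocytes. Junction proteins such as VE-cadherin, receptor kinases for vascular growth factors and the endoglin co-receptor are shared by most endothelial cells. Sinusoidal endothelial cells add endocytic receptors that clear hyaluronan and other waste molecules from blood.

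The squalene pool came from male mice given squalene at 1 g per kg per day in a 1% glycerol drink for 10 weeks, and the control pool from male mice given the 1% glycerol drink alone. Squalene is a triterpene precursor of cholesterol. Mice of both pools were on chow, had a C57BL/6J/OLA129 background, lacked apolipoprotein E, and are labelled with an age of 2 months. The growth protocol has the same text for both pools, and the titles of the samples set the groups. The livers were washed to remove blood. Each pool was read on 1 Affymetrix array, and the sources used here do not give the number of mice in a pool, so no ratio below has a replicate error and no test between the pools was possible. Values are MAS5 signals, in arbitrary linear units, and ratios are log2 of squalene over control, given in brackets after a pair of signals.

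The array medians were 41.4 in the squalene pool and 39.9 in the control pool, and a gene was called measured when its brightest probe set reached the median in at least 1 pool. Signals called dim lay below the median. Of the 12393 genes 7330 were measured, with a median log2 ratio of 0.01. The 18 hybridization spike-in probe sets all read lower in the squalene pool (median log2 ratio -0.26), so scaling to them would add 0.26 to every ratio given here. For actin, the 3′ probe set over the 5′ one gave 2.48 in the squalene pool and 2.80 in the control pool, a measure of RNA integrity. The labelled tissue was borne out by hepatocyte transcripts, with albumin (Alb) at 14625.1 in the squalene pool and 16656.0 in the control pool.

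The measured endothelial markers differed little between the 2 pools. Of the 8 measured markers, 0 lay above a log2 ratio of 0.5, 0 lay below -0.5, and 8 lay between. Over all measured genes 11.3% lay above 0.5, 10.4% below -0.5 and 78.3% between, so with 8 genes the count within the band is close to the background. The median log2 ratio of the 8 was -0.18, with a range from -0.46 for Eng to 0.15 for Lyve1, and 6 of them lay below 0, beside 49.3% of all measured genes. Scaled to the spike-ins, the median was 0.082 and 1 of the 8, Eng, lay below 0. None of the 8 passed the limit of 1.5 that the submitters used as their screen, which 2.26% of measured genes passed. The other 2 markers, Pecam1 and Tie1, were below the array median in both pools. In whole liver RNA, fewer endothelial cells and less RNA per cell cannot be told apart.

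With no replicate arrays, the ratios were read against how far probe sets for 1 gene differ from each other. The SD of their log2 ratios was 0.80 for genes of low signal, 0.42 for genes of middle signal and 0.26 for bright genes, the measured genes being divided by signal into 3 parts of equal size. Of the 8 measured markers, Cdh5, Tek and Lyve1 were among the genes of low signal and the other 5 among those of middle signal. Of these 8, 1 (Eng) had a ratio larger in size than that SD, and 23.9% of all measured genes did. This SD is a spread between probe sets and holds no spread between mice.

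**Figure D1:**
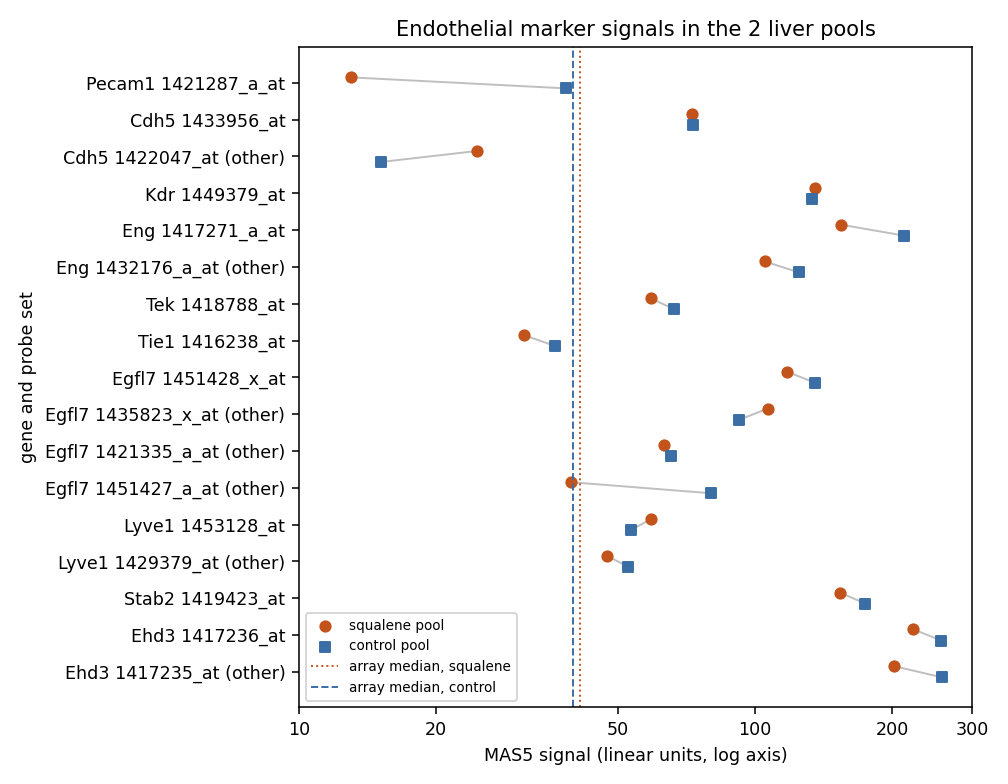
MAS5 signal (linear units on a log axis) of all 17 probe sets of the 10 markers in the squalene pool (circles) and the control pool (squares), 1 array each, joined by grey lines, with the 2 array medians as vertical lines. The 2 symbols of a row lie close together for most rows, and Pecam1, Tie1 and the dimmer Cdh5 probe set lie left of both medians. Signals of different probe sets are not on a common scale.

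Pan-endothelial junction proteins came first. Cdh5, which encodes VE-cadherin, the adhesion molecule of endothelial adherens junctions, read 72.7 in the squalene pool and 73.3 in the control pool, a log2 ratio of -0.01. A second Cdh5 probe set, below the array median in both pools, read 24.6 in the squalene pool and 15.1 in the control pool (0.70). The brighter Cdh5 probe set thus differed by less than the spread between probe sets, and the dimmer one was not at a measured level in either pool.

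Pecam1, which encodes CD31, an adhesion protein of endothelial junctions also carried by platelets and leukocytes, read 13.0 in the squalene pool and 38.6 in the control pool on its single probe set. The log2 ratio was -1.57, past the limit of 1.5, but both signals lay below the array medians. With signals floored at the medians the ratio was 0.051, which is the log2 ratio of the medians themselves. Any gene below both medians gets this value, so it tells nothing about Pecam1. Pecam1 is therefore a member with a large ratio and no measured level in either pool.

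The receptor kinases differed little. Kdr, the main signalling receptor for vascular endothelial growth factor A, read 135.3 in the squalene pool and 133.7 in the control pool, a log2 ratio of 0.02. Tek, which encodes TIE2, the receptor of the angiopoietins, read 59.1 in the squalene pool and 66.5 in the control pool (-0.17). Both ratios were smaller than the SD between probe sets. Tie1, a partner receptor of TIE2, read 31.1 in the squalene pool and 36.5 in the control pool (-0.23), below the array medians in both. Kdr, Tek and Tie1 had 1 probe set each.

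Eng had the largest ratio of the measured markers. It encodes endoglin, a co-receptor for bone morphogenetic protein 9 and other ligands of the TGF-beta family. Its brighter probe set read 154.2 in the squalene pool and 212.7 in the control pool, 1.38-fold lower with a log2 ratio of -0.46. The second probe set read 105.1 in the squalene pool and 125.0 in the control pool (-0.25). Both Eng probe sets lay on the same side of 0, and the brighter exceeded the SD of 0.42 for genes of similar signal by a small margin. After quantile normalization the Eng ratio was just past -0.5, and scaled to the spike-ins it was -0.21.

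Egfl7, a protein secreted by endothelial cells into their matrix, was read on 4 probe sets that did not point one way. The brightest read 117.9 in the squalene pool and 135.7 in the control pool (-0.20). The next read 106.7 in the squalene pool and 92.5 in the control pool (0.21), and another 63.3 in the squalene pool and 65.6 in the control pool (-0.05). The dimmest read 39.6 in the squalene pool and 80.3 in the control pool (-1.02). Of these 4 ratios, 3 lay within 0.5 of 0, and the outlying one had a squalene signal below the array median. The sources used here do not give which Egfl7 transcripts each probe set reads.

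The 3 sinusoidal markers also lay within the band. Lyve1, a hyaluronan receptor of sinusoidal and lymphatic endothelium that some macrophages carry too, read 59.2 in the squalene pool and 53.5 in the control pool (0.15). Its other probe set read 47.4 in the squalene pool and 52.8 in the control pool (-0.16). The 2 Lyve1 probe sets thus differed in sign at similar size, so no direction can be given.

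Stab2, which encodes stabilin-2, the scavenger receptor that clears hyaluronan from blood, read 154.0 in the squalene pool and 174.9 in the control pool on 1 probe set (-0.18). Ehd3, an EH-domain protein of endocytic membrane traffic, read 222.9 in the squalene pool and 256.6 in the control pool (-0.20), and 202.5 in the squalene pool and 257.2 in the control pool on its second probe set (-0.34). Stab2 and both Ehd3 probe sets were lower in the squalene pool, by less than the SD of 0.42 between probe sets. The median over the 3 sinusoidal markers was -0.18, and over the 5 measured pan-endothelial markers -0.17.

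**Figure D2:**
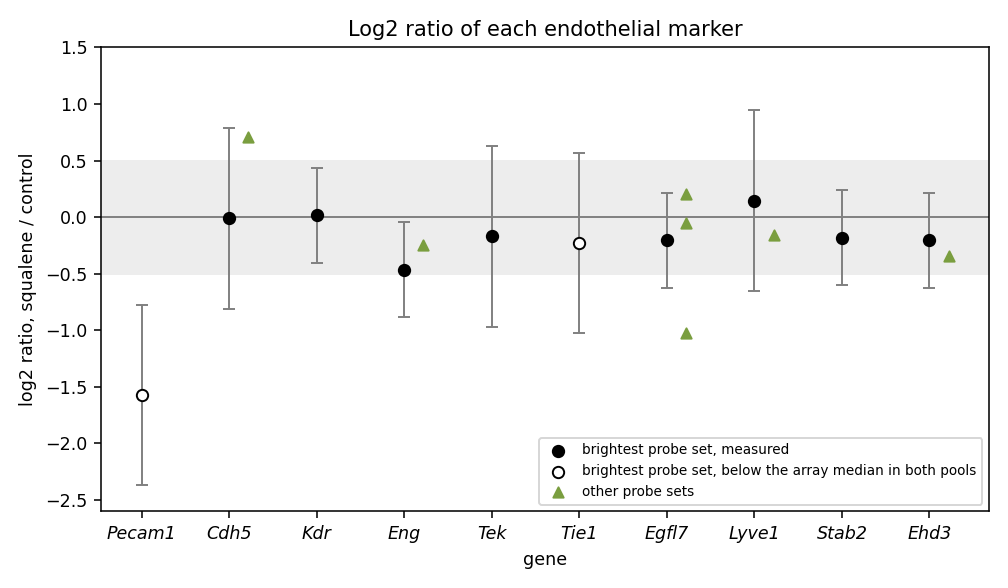
Log2 ratio of squalene over control for each marker. Black points are the brightest probe set (open where both signals lay below the array medians) with the SD between probe sets of genes of similar signal as error bars, triangles are the other probe sets, and the grey band is a log2 ratio from -0.5 to 0.5. All 8 filled points lie in the band, and Pecam1 at -1.57 is open.

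**Figure D3:**
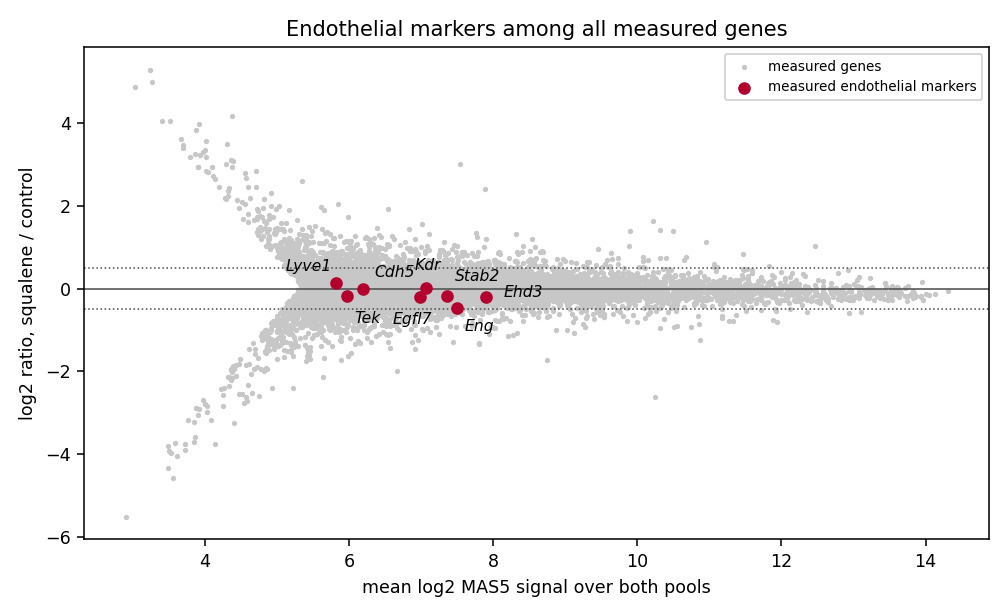
Log2 ratio of squalene over control (y axis) against mean log2 MAS5 signal over both pools (x axis) for 7330 measured genes (grey) and the 8 measured endothelial markers (red), with dotted lines at -0.5 and 0.5. The markers sit inside the cloud, in the dimmer part of the signal range, and none lies outside the dotted lines.

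The promoters of these genes were set beside their ratios. RefSeq windows (build GRCm38.p6) were matched by symbol for 7 of the 10 markers, with 3 alternative starts for Egfl7, giving 9 windows. The 3 shown here were taken, upstream of the start only, 250 bases each: Eng, the measured marker with the largest ratio (chr2:32646345-32646594, plus strand), Kdr, the one nearest 0 among those with a window (chr5:75978456-75978705, minus strand), and Stab2 for the sinusoidal group (chr10:87007943-87008192, minus strand). Capitals mark GGAA or its reverse complement TTCC, the core bound by ETS transcription factors, the family that includes the endothelial factors ERG and FLI1.
Eng: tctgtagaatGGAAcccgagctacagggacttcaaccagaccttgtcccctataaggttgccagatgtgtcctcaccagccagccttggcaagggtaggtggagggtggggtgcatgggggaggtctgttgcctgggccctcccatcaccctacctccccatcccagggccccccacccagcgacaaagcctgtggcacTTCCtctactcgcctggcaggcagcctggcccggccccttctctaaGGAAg
Kdr: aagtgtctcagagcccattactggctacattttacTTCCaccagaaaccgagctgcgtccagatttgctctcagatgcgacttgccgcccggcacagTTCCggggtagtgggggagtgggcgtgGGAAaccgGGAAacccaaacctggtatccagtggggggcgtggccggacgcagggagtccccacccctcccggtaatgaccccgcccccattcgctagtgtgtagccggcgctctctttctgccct
Stab2: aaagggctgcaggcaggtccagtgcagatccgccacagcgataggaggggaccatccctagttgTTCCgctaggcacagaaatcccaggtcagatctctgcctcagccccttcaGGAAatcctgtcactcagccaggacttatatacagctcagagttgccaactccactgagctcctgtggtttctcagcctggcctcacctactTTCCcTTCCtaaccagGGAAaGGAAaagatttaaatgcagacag

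The core occurred 3 times in the Eng window, 4 times in that of Kdr and 6 times in that of Stab2. All 9 windows held it, as did 93.4% of 32851 windows of all genes, so its presence sets these genes apart from few others. The longer AGGAAG, which contains the core, was found on either strand in 5 of the 9 windows and in 29.5% of all windows. The 5 windows include more than 1 start of Egfl7, so they stand for fewer than 5 genes, and no test was made. AGGAAG occurred 2 times upstream of Eng, 1 time upstream of Stab2 and 0 times upstream of Kdr. The GATA letters AGATAA, searched because GATA4 directs sinusoidal endothelial identity in mice, were in 0 of the 9 windows and 9.99% of all windows. With 9 windows, 0 is close to that share. Only this spelling was counted. Variants such as AGATAG, which the Ehd3 window holds, and TGATAA and TGATAG, which Egfl7 windows hold in reverse complement, were not counted. A match of letters is a description and not a binding site.

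Other genes of the endothelium were read for comparison, leaving the 10 markers out. Of 22 further pan-endothelial genes on the array 14 were measured, with a median log2 ratio of -0.23, or 0.033 when scaled to the spike-ins. By the band 2 were higher, 3 lower and 9 between, beside 11.3%, 10.4% and 78.3% of all measured genes. Robo4, a guidance receptor that stabilises vessels, read 70.2 in the squalene pool and 32.8 in the control pool (1.10). Vwf, the platelet-binding von Willebrand factor, read 58.2 in the squalene pool and 33.3 in the control pool (0.81). Both were dim in the control pool. Clec14a, an endothelial lectin-domain protein, read 69.4 in the squalene pool and 129.1 in the control pool (-0.90), with a second, dim probe set at -0.09. Calcrl, the receptor that binds adrenomedullin together with RAMP proteins, read 39.3 in the squalene pool and 62.2 in the control pool (-0.66), dim in the squalene pool. A second Calcrl probe set, dim in both pools, had a log2 ratio of 0.83. Among the 10 of these genes at or above the median in both pools, 0 were higher and 1 was lower.

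Of 16 further sinusoidal genes 13 were measured, all of them at or above the median in both pools. By the band 1 was higher, 3 lower and 9 between, beside 11.3%, 10.4% and 78.3% of all measured genes. The median was -0.14. It was -0.34 when all probe sets of each gene were averaged, -0.32 over the 6 genes past the 75th percentile of signal, and 0.12 when scaled to the spike-ins. Clec4g, the LSECtin lectin, read 522.2 in the squalene pool and 864.9 in the control pool (-0.73), but its second, dim probe set had a log2 ratio of 0.72. Fcgr2b, the Fc receptor by which these cells remove immune complexes, read 656.9 in the squalene pool and 1007.0 in the control pool (-0.62), and its other 3 probe sets lay between -0.78 and -0.24. Mrc1, the mannose receptor, read 277.5 in the squalene pool and 394.1 in the control pool (-0.51). Stab1, the paralogue of Stab2, read 152.5 in the squalene pool and 105.5 in the control pool (0.53). Fcgr2b, Mrc1 and Stab1 are carried by macrophages as well as by sinusoidal endothelium.

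Ligands and partners of the growth factor receptors were read next, beside 11.3% of all measured genes above the band, 10.4% below it and 78.3% within. Of 13 listed VEGF signalling genes other than Kdr, 9 were measured, with 0 higher, 3 lower and 6 between. The list had a median of 0.02. Nrp1, a co-receptor of Kdr, read 182.9 in the squalene pool and 348.1 in the control pool (-0.93). The log2 ratios of its other 2 probe sets were -0.75 and -0.65, so all 3 were lower in the squalene pool by more than the SD of 0.42. Vegfa, the ligand of Kdr, read 307.4 in the squalene pool and 247.6 in the control pool (0.31), and the log2 ratio of its other probe set was -0.21. Flt1, which binds and limits VEGF-A, read 57.5 in the squalene pool and 42.6 in the control pool (0.43). Its other probe sets, both dim in the control pool, had log2 ratios of 0.62 and -2.92. The lymphangiogenic ligand gene Vegfd (-0.78) was dim in the squalene pool, and the adaptor gene Nck1 stood at -0.53, with a probe set below the medians at 3.85. When all probe sets of each gene were averaged, dim ones included, the median of this list was -0.52, and scaled to the spike-ins it was 0.28.

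Of 9 genes of angiopoietin and Tie signalling other than Tek and Tie1, 5 were measured, with 2 higher, 1 lower and 2 between. Over the 4 at or above the array median in both pools, 2 were higher and 0 lower. Angpt2, the context-dependent ligand of TIE2, read 28.7 in the squalene pool and 46.7 in the control pool (-0.70), dim in the squalene pool, and Angpt1, its main activating ligand, lay below the array median in both. Ptprb, the phosphatase that acts on TIE2 and VE-cadherin, read 417.9 in the squalene pool and 416.1 in the control pool (0.01). The downstream factor Foxo1 read 283.7 in the squalene pool and 187.8 in the control pool (0.60), with its other 3 probe sets between 0.76 and 0.81. Pik3r1, a subunit of phosphoinositide 3-kinase, stood at 1.25, with its other probe sets at 0.19 and 0.23. Foxo1 and Pik3r1 are active in hepatocytes too, and whole liver does not tell the sources apart.

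Around endoglin, genes of BMP signalling were read. Of 19 listed genes other than Eng, 11 were measured, with 0 higher, 4 lower and 7 between, beside 10.4% of all measured genes lower and 11.3% higher. Over the 10 at or above the array median in both pools, 3 were lower. The list had a median of -0.23, which was -0.58 when all probe sets of each gene were averaged and 0.029 when scaled to the spike-ins. Gdf2, which encodes BMP9, the endoglin ligand, read 109.1 in the squalene pool and 150.0 in the control pool (-0.46), a ratio like that of Eng. The 4 lower genes are known transcriptional targets of BMP signalling or belong to the Id family. Id3 read 141.1 in the squalene pool and 350.3 in the control pool (-1.31), and Id1 50.1 in the squalene pool and 114.5 in the control pool (-1.19). Smad6, an inhibitory SMAD, read 26.0 in the squalene pool and 70.6 in the control pool (-1.44), dim in the squalene pool. Id2 read 790.0 in the squalene pool and 1221.1 in the control pool (-0.63), with its other probe sets at -1.16 and 0.06. The 7 between were Gdf2, Tgfbr2 (-0.23), Smad7 (-0.22), Smad4 (-0.06), Smad1 (0.12), Acvr2a (0.24) and Tgfbr1 (0.32). Of these, Smad7 is like Smad6 an inhibitory SMAD. A second Acvr2a probe set, at or above the array median in both pools, read 80.5 in the squalene pool and 47.1 in the control pool (0.77). A second Smad1 probe set, dim in the squalene pool, had a log2 ratio of -0.65. The signalling receptor Acvrl1 was below the array median in both pools. These genes are expressed by several liver cell types, and which cells the difference comes from was not tested.

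Partners of VE-cadherin and the tight junctions followed. Of 14 listed genes besides Cdh5 and Pecam1, 13 were measured and 13 lay within the band, as did 78.3% of all measured genes, from -0.25 for the junction molecule Esam to 0.26 for Tjp1, which encodes the scaffold ZO-1. Ctnna1, alpha-catenin, stood at 0.24 and F11r, junctional adhesion molecule A, at 0.20. Other Ctnna1 probe sets gave -0.04, and -1.01 where dim in both pools. The other F11r probe set, dim in the squalene pool, had a log2 ratio of -1.12. Most genes of this list are expressed in epithelial cells as well.

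Genes of hyaluronan turnover, the pathway of Lyve1 and Stab2, were few. Of 9 other members 4 were measured, with 1 higher, 2 lower and 1 between, beside 11.3%, 10.4% and 78.3% of all measured genes. The hyaluronan synthases Has1, Has2 and Has3 were below the array median in both pools. Hyal2, a hyaluronidase of the cell surface, read 112.8 in the squalene pool and 192.3 in the control pool (-0.77), and the hyaluronan receptor Cd44 read 45.9 in the squalene pool and 73.8 in the control pool (-0.69). Cemip2, which cleaves hyaluronan, stood at 0.39, and Stab1, described above, at 0.53. Around Ehd3, 7 of 9 family members and endocytic partners were measured and 7 lay within the band, as did 78.3% of all measured genes. Ehd2 stood at 0.47, Ehd1 at -0.36, Snap29 at 0.31 and Rabep1 at 0.30. Other Ehd1 probe sets gave -0.07 and 0.31, and -2.55 where dim in both pools, so no direction can be given. The other Rabep1 probe sets lay between -0.01 and 1.02.

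Markers of neighbouring cell types were set beside the endothelial ones, as measured values only. The summed signal of the 10 endothelial markers was 1019.4 in the squalene pool and 1182.0 in the control pool, a log2 ratio of -0.21. Kupffer cell and macrophage markers summed to 7090.6 in the squalene pool and 10058.0 in the control pool (-0.50) over 16 genes. Such sums add probe sets that are not on a common scale, so the brightest genes weigh most in them. Of the 15 macrophage markers measured, 0 were higher, 10 lower and 5 between, beside 11.3%, 10.4% and 78.3% of all measured genes. All 15 lay below 0, beside 49.3% of all measured genes, and the median was -0.68 (range -1.33 to -0.08). Scaled to the spike-ins this median was -0.43, where that of the endothelial markers was 0.082. The brightest macrophage markers were Slc40a1 (-0.11), Csf1r (-0.56) and Cd5l (-0.40). None of the 8 measured endothelial markers had a ratio as low as the macrophage median. With 1 array per pool the difference between the 2 lists could not be tested, and the part of macrophage RNA in Fcgr2b, Mrc1 and the other shared genes was not tested.

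Stellate cell and fibroblast markers summed to 3857.2 in the squalene pool and 4267.1 in the control pool over 15 genes (-0.15). The brightest of them, the matrix proteoglycan gene Dcn, made up most of this sum, with 2415.0 in the squalene pool and 2540.5 in the control pool (-0.07). Of the 9 measured, 0 were higher, 5 lower and 4 between, beside 11.3%, 10.4% and 78.3% of all measured genes. The median ratio was -0.70 and the highest 0.29. The median was 0.0084 when probe sets that can match several transcripts (suffixes _a_at, _s_at and _x_at) were left out, which kept 5 of the 9 genes. Acta2, Col1a2, Col3a1 and Pdgfrb, all lower on their brightest probe sets, had no measured probe set of plain suffix. Lum, also lower, did have one, which read 88.5 in the squalene pool and 163.1 in the control pool (-0.88). The list median was -0.19 when all probe sets of each gene were averaged, and -0.03 over the 4 genes past the 75th percentile of signal. Next in brightness after Dcn were Reln (0.02) and Rgs5 (0.01). Hepatocyte markers summed to 142970.0 in the squalene pool and 147727.0 in the control pool (-0.05). Of these, 13 of 13 lay within the band, beside 78.3% of all measured genes, with a median of -0.06 (range -0.21 to 0.45). Other leukocyte markers summed to 352.4 in the squalene pool and 384.7 in the control pool (-0.13), with 4 of 12 measured (range -1.10 to 0.71), among them Ptprc, the pan-leukocyte CD45, at -0.27. Platelet markers, listed because platelets carry Pecam1, summed to 243.3 in the squalene pool and 164.9 in the control pool (0.56), with 2 of 7 measured, Pf4 at 0.39 and Itga2b at 1.66, which read 69.1 in the squalene pool and 21.9 in the control pool and was dim there. No probe set on either array read exactly 0.

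**Figure D4:**
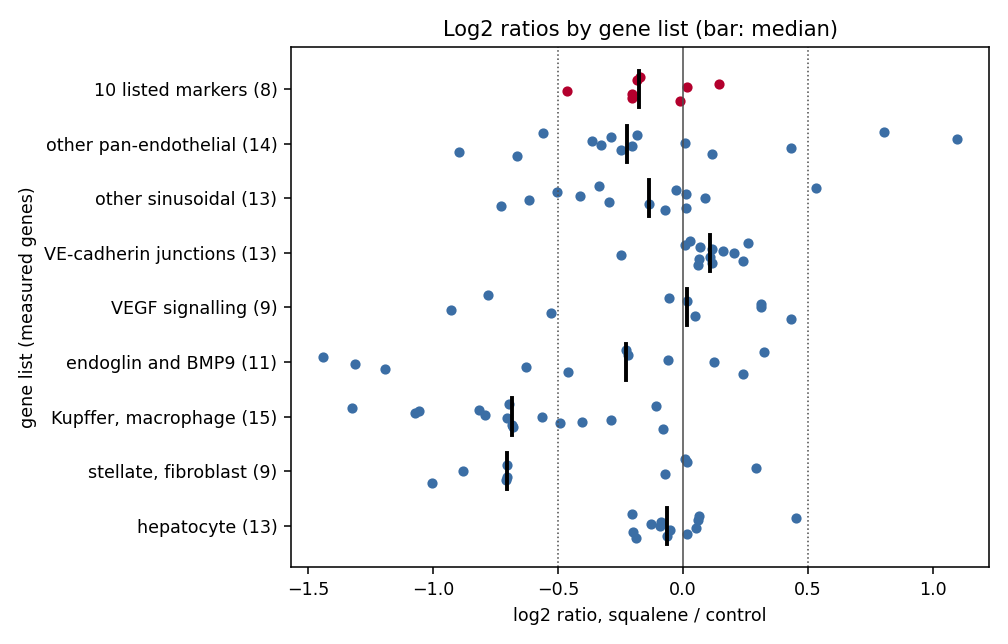
Log2 ratio of squalene over control for the measured genes of 9 lists (points, number of genes in brackets), with the median as a bar and dotted lines at -0.5 and 0.5. The 8 endothelial markers lie between -0.46 and 0.15, and the 15 macrophage markers all lie below 0 with a median of -0.68.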

How the data were processed

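Per the labels, pooled liver RNA was labelled with biotin and hybridised to 1 Affymetrix array per pool. The authors deposited 1 linear intensity per probe set and array, a MAS5 signal per the submitters' processing notes. The 2%-trimmed mean was 200.1 on both arrays, and the sources used here do not give the scaling setting. Their number, 2 arrays, limits the precision.

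Of 22690 probe sets 64 were array controls and were left out, and 20380 had a single symbol in the platform annotation. Each gene was represented by the probe set of highest mean log2 signal, and ratios were taken without a pseudocount. With 1 array per pool no test was made, and lists are described by counts and medians beside all measured genes. The SD between probe sets was pooled over genes with several measured probe sets. The members and lists were chosen with earlier results of these data known. The named genes were all 10 markers and, per list, up to 4 measured genes of largest ratio plus ligands and receptors of markers, and up to 3 brightest genes of marker lists. Ptprb, Nos3 and Klf2 were named after their values were seen. Further genes were named outside this rule. Among them were Smad1, Smad4 and Smad7 of the BMP list, and Acta2, Col1a2, Col3a1, Lum and Pdgfrb of the stellate cell list. Counts and the probe set SD were tested on simulated data with known ratios. Alternatives changed the probe set, filter, floor, scaling, pseudocount (3.0) and limit. Python 3.11.15, numpy 2.4.6, pandas 2.3.3, matplotlib 3.10.9, R 4.3.3 and limma 3.58.1 were used.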

Additional observations from a re-analysis of the deposited data

How the results depend on the processing

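The median log2 ratio of the measured endothelial markers (-0.18) stayed between -0.23 and -0.09 under 11 of the 12 alternatives of probe set, filter, floor, scaling and pseudocount, and was 0.082 when scaled to the spike-ins. Leaving out each marker in turn gave -0.18 to -0.17. The number of markers below -0.5 was 0 in the main setting and 1 with quantile normalization, loess and a limit of 0.3 (Eng each time) and 1 with no filter (Pecam1), and 0 lay above the band in each of these settings. With signals floored at the array medians, Pecam1 and Tie1 both read 0.051, a value the medians fix for any gene below both. The 75th percentile filter left 3 markers, and the plain-suffix setting 6. The 212 list medians under the alternatives were each held against a limit set for the list. This limit was 0.21 for the endothelial markers, below each SD between probe sets given above. The hepatocyte median counted as moved when it went from -0.065 to 0.035 over plain-suffix probe sets. Of the 212 medians, 182 moved by less than their limit and 29 by more. The remaining 1 changed sign from a called value, that of stellate cell genes at 0.0084 over plain-suffix probe sets. The cause was not tested. Dim signal and the absence of replicate arrays limit these values, and 2 of the 10 markers gave no measured level in either pool. No paired analysis was possible because each pool has 1 array.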

Other observations

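Genes of Notch signalling, which shapes arterial and sinusoidal endothelium, were also read. Of 13 genes 7 were measured, with 0 higher, 1 lower and 6 between, beside 78.3% of all measured genes between. The lower gene was dim in the squalene pool, and over the 5 genes at or above the array median in both pools 0 were lower. The endothelial ligand gene Dll4 read 25.2 in the squalene pool and 44.9 in the control pool (-0.83), while another Dll4 probe set, dim in both pools, had a log2 ratio of 1.68. The receptor gene Notch2 stood at 0.17, its target Hes1 at 0.19 and the transcription factor gene Rbpj at 0.48.

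Among genes that respond to blood flow, 6 of 10 were measured. By the band 0 were higher, 2 lower and 4 between, beside 11.3%, 10.4% and 78.3% of all measured genes. Over the 4 at or above the array median in both pools, 1 was lower and the median was -0.09. Gja4, a connexin of arterial endothelium, read 62.9 in the squalene pool and 94.0 in the control pool (-0.58), and Thbd, the anticoagulant receptor thrombomodulin, 30.8 in the squalene pool and 45.4 in the control pool (-0.56), dim in the squalene pool. The vasoconstrictor gene Edn1 stood at -0.49, dim in the squalene pool, and the kinase gene Map3k3 at 0.35. Other Map3k3 probe sets had log2 ratios of 1.31, dim in the control pool, and 0.56, dim in both pools. Nos3, the endothelial nitric oxide synthase, stood at -0.20 and the flow-induced factor Klf2 at 0.02. Of 4 lymphatic endothelial markers 3 were measured, Flt4, Prox1 and Reln, between 0.02 and 0.05. Reln was also on the stellate cell list, and Pdpn lay below the array median in both pools. Which cells the 3 measured transcripts come from was not tested. Of 5 red blood cell markers 2 were measured, Alas2 (-0.47) and Hba-a2 (0.45), the second dim in the control pool. None of 5 cholangiocyte markers and 1 of 9 cycling cell genes, Pcna (-0.07), was measured.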
